A study of Homo sapiens with 6 samples.

Results

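The genes that open replication origins and run the replication fork were followed in SW620, an established human colorectal cancer cell line, after stable knockdown of DKC1. The 46 genes were chosen by name for their place in origin licensing, the replicative helicase, the polymerases, the sliding clamp and its loader, and fork protection. All 46 were among the 19672 genes of the deposited count table, and all 46 were among the 13299 genes that passed the filter on low counts. DKC1 encodes dyskerin, the pseudouridine synthase of H/ACA ribonucleoproteins and a part of telomerase. The 6 messenger RNA libraries fell into 3 groups of 2. Scramble cells carried a non-targeting shRNA, and the lines called C3 and C6 carried an shRNA against DKC1. Every group was otherwise untreated and had received its construct by lentivirus with puromycin selection at 1 µg/mL. Which of the study's shRNAs (shDKC1-2 and shDKC1-3) C3 and C6 carry, and whether a line is 1 clone, was not given in the sources used here.

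A replication origin is first bound by the origin recognition complex (ORC1 to ORC6). In G1 phase CDC6 and CDT1 then load the ring of MCM2 to MCM7, which geminin (GMNN) prevents later in the cycle by holding CDT1. In S phase the kinase CDC7 with its activator DBF4, together with MCM10, CDC45 and the GINS proteins, turns the loaded ring into a moving helicase. Primase and DNA polymerase alpha start each strand, the RFC complex loads the PCNA clamp, polymerases delta and epsilon extend, FEN1 and LIG1 join the lagging strand fragments, RPA covers single-stranded DNA, and TIMELESS, TIPIN and CLSPN keep the fork intact. Many of these genes are known to be transcribed at the G1/S boundary under E2F factors, and they are known as markers of dividing cells, normal colon crypts and colorectal tumours included.

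Promoter sequences are shown first, because E2F control is the best known feature that the genes share. The 7 promoters below belong to MCM2, MCM3 and GINS2, which were higher in C3 and lower in C6, to MCM6 and PCNA, which were higher against scramble in each line, and to CDT1 and CLSPN, which were lower in C6. Each line gives 130 bases from RefSeq (GRCh38.p14, the assembly of the submitters' hg38), 5′ to 3′ on the gene's strand, of which 100 lie before the transcription start and 30 from it on. Capitals mark E2F-type words on either strand, with overlapping words joined. The words searched were TTCCCGC, the similar word TTCGCGC, the word that reads TTGCCGC, and lastly the word TTGGCGC.
MCM2 (chr3:127598311-127598440, plus strand): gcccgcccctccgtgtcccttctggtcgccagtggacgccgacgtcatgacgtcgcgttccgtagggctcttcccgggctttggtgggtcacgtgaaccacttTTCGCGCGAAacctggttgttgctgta
MCM3 (chr6:52284713-52284842, minus strand): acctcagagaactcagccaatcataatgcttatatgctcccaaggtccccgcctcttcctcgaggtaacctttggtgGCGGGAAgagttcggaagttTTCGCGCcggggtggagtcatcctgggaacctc
MCM6 (chr2:135876414-135876543, minus strand): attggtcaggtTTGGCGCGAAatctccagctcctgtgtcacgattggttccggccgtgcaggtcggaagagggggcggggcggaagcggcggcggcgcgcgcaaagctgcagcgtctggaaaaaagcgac
CDT1 (chr16:88803689-88803818, plus strand): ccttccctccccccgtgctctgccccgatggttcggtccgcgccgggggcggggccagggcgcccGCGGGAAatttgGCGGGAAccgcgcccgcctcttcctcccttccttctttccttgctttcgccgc
GINS2 (chr16:85688925-85689054, minus strand): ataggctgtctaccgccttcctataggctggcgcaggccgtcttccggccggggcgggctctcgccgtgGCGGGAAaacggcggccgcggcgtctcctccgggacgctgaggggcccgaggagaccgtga
PCNA (chr20:5126593-5126722, minus strand): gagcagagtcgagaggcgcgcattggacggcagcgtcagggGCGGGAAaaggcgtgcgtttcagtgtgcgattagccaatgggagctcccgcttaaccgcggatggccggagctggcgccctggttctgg
CLSPN (chr1:35769949-35770078, minus strand): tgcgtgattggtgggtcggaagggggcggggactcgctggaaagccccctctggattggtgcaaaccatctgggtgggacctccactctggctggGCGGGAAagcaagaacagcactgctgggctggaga

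The 7 stretches hold between 1 and 2 of the words each, but they were selected and do not stand for the 46 genes. Where a gene had several promoter entries, the one with most words in the printed stretch was shown. PCNA has another entry, which holds no word. In MCM2 and MCM6 a word overlaps another on the opposite strand, and in CDT1 and MCM3 the words lie apart. RefSeq promoters of 300 bases (250 before the start and 50 after it) were found for 40 of the 46 genes, as 51 entries; MCM4, MCM5, GINS4, POLD3, RPA2 and RPA3 had none. At least 1 E2F-type word was present in 31 of the 51 entries (60.8%), against 12.97% of all 35116 promoters of that length and 18.8% of the 15512 promoters of tested genes. Counted by gene, as in the splits by call below, 29 of the 40 (72.5%) had a word in any entry, against 24.7% of tested genes with a promoter. The genes without one were CDC45, DBF4, FEN1, MCM10, ORC2, ORC4, ORC5, ORC6, POLD1, POLD2 and PRIM2. The CCAAT box, searched on both strands, was in 28 of the 51 (54.9%) against 34.6% of all. The word TTTGAA, the core of the CHR element of mitotic genes, was in 1 of the 51, against 15.2% of all and 10.4% of promoters of tested genes. Among the genes lower in C6 than in C3, 18 of 25 with a promoter had an E2F-type word, and among those not called in that comparison 8 of 11 did. Against scramble the words were present in 10 of 12 genes higher in C3 and in 19 of 28 not called there. In C6 they were in 3 of 7 higher, 14 of 19 lower and 12 of 14 not called. A match is a description of the sequence and not a binding site.

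The libraries held between 26077966 and 31021000 counts, and the 46 genes had between 303 (GINS2) and 11949 counts (MCM3) in any of them. Libraries of the same group differed by more than counting noise, since the chi-square of their counts over genes, divided by its degrees of freedom, was 7.39 for scramble, 5.97 for C3 and 8.07 for C6. Biological replicates is what the titles call them, and all 6 carry the same batch tag, but nothing says that they came from separate cultures, so p-values measure only the spread between these libraries, which may be technical. DKC1 itself stood at 319.7 and 315 CPM (counts relative to the scaled library size) in the scramble pair, 144 and 149 in the C3 pair and 70.3 and 67.1 in the C6 pair, log2 changes of −1.11 ± 0.059 and −2.21 ± 0.062 (SE). The first of these C3 libraries is a knockdown by its title but a control by its genotype tag. Its DKC1 level lay beside that of the other C3 library and far below both scramble libraries, as its title says. Counts are given below with and without it. The summed level of 10 epithelial and intestinal markers was between 8492 and 9138 CPM in scramble, between 6888 and 7084 in C3 and between 8956 and 9063 in C6; of them CDX1 was at 0 in all 6 libraries. Of 11 markers of blood, fibroblast and endothelial cells, 6 (PTPRC, CD3E, COL1A2, COL3A1, DCN and CDH5) were at 0, and the 11 summed to 11.4 to 12.2 CPM in scramble, 8.15 to 8.62 in C3 and 9.23 to 9.63 in C6.

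Summed over the 46, the level was higher in C3 than in scramble and lower in C6, and the libraries of the 3 groups did not overlap. It was 3706 ± 16.2 CPM in scramble (SD, n = 2), 4126 ± 55.4 in C3 and 3466 ± 1.67 in C6. In C3, 14 of the 46 genes rose and 0 fell by edgeR's quasi-likelihood test at an adjusted p of 0.05, where 24.3% of all genes tested were called, 12.4% higher and 11.9% lower. In C6, 9 rose and 21 fell, where 46.7% of all genes were called, 23.8% higher and 22.8% lower. The median log2 fold change of the 46 was 0.11 in C3 and −0.16 in C6, and that of all genes tested 0.001 and −0.010. Both C3 libraries lay above both scramble libraries for 28 genes (31.8% of all genes) and below them for 6 (31.1%), and both C6 libraries lay above for 14 (36.1%) and below for 25 (36.8%). Both comparisons use the same scramble libraries. In bulk RNA a smaller share of cells in S phase and less RNA of these genes per cell cannot be told apart.

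C6 was then compared directly with C3. Of the 46 genes 28 were lower in C6 and 6 higher, where 49.2% of all genes tested were called, 24.1% lower and 25.1% higher, and the median log2 difference was −0.31, against 0.002 for all genes. The C3 count depended on single libraries: it was 8 higher and 1 lower (ORC3) without the C3 library tagged as control, 5 higher without the other C3 library, and 8 and 7 without the first and second scramble library. C6 against C3 gave 4 higher and 26 lower without the tagged library, 4 and 23 without the other C3 library, 3 and 25 without the first C6 library and 4 and 23 without the second. Over all genes tested, too, fewer were called in each of these fits with a library left out. For genes called higher in C3, however, the share lost was larger among the 46 than among all genes tested. At an unadjusted p under 0.05, 17 genes were higher and 1 lower in C3, and DESeq2 called 9 higher and 0 lower there. With upper-quartile scaling 9 rose and 1 fell in C3. Over all genes tested that scaling called 1317 higher and 1840 lower in C3, from 1654 and 1576 before.

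**Figure D1:**
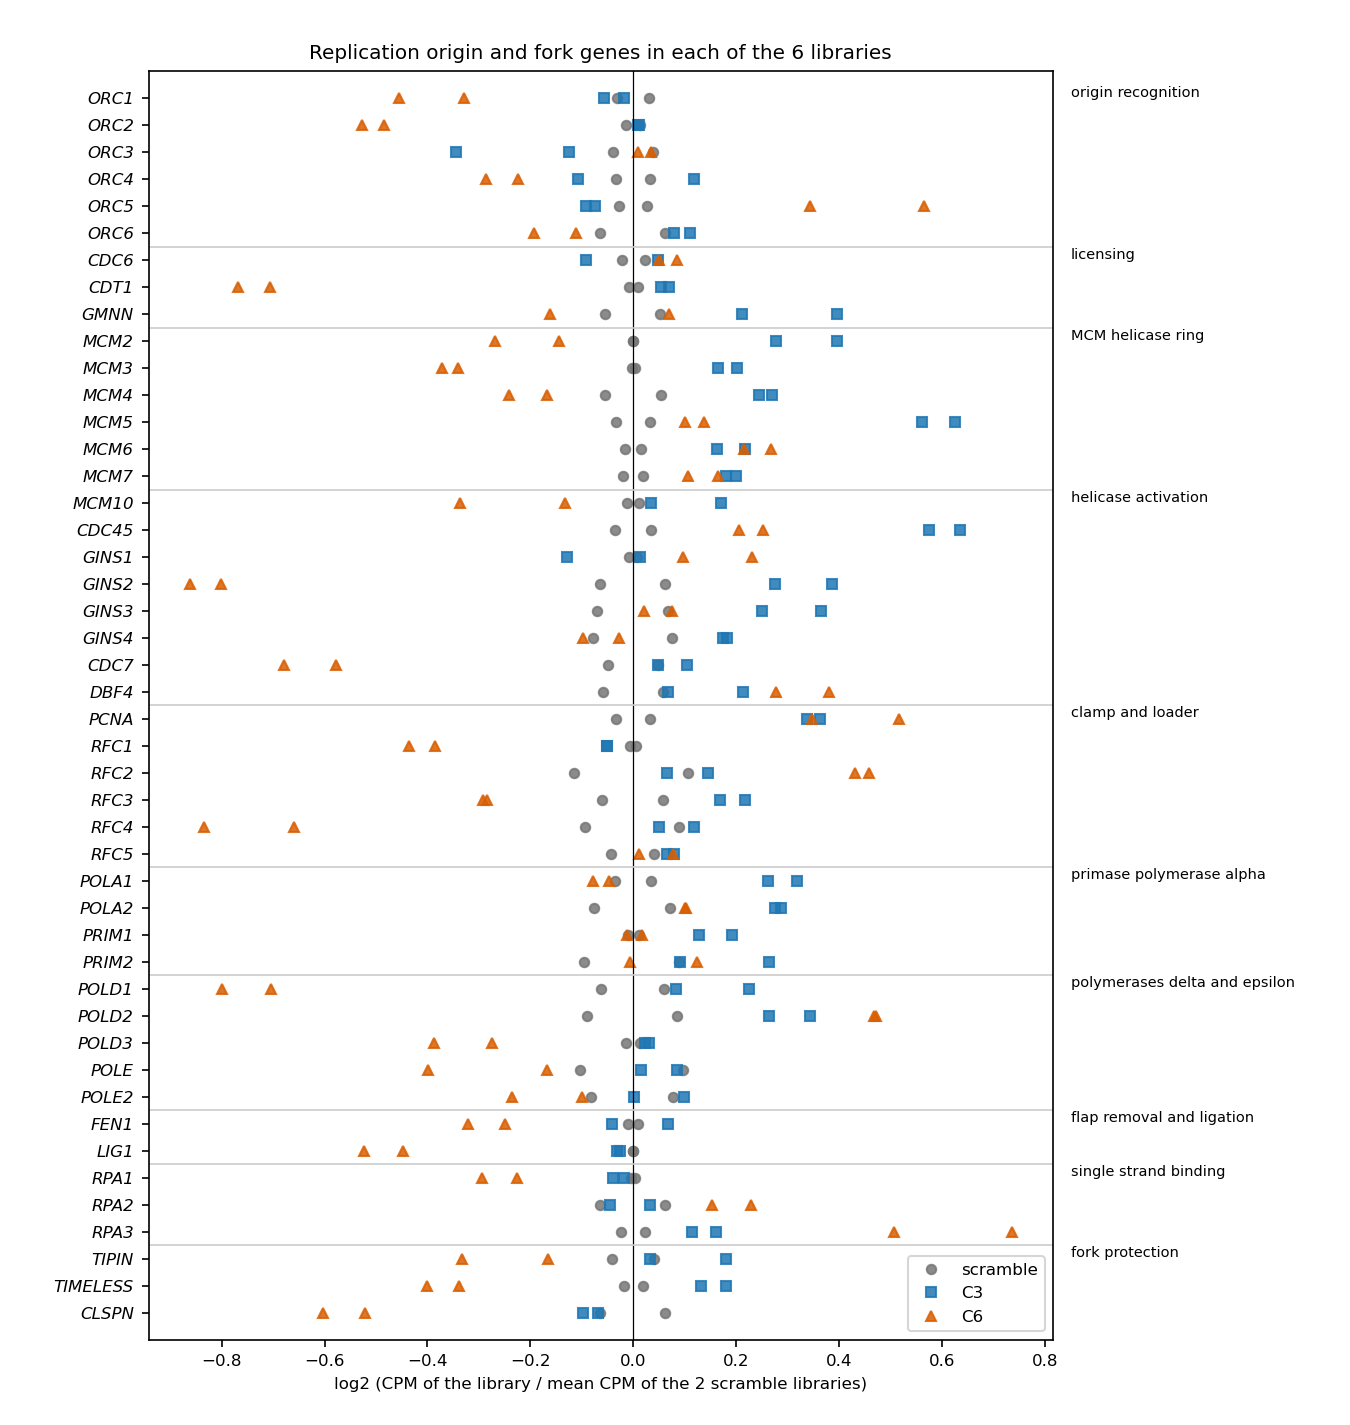
Level of each of the 46 genes in every library as the log2 ratio of its CPM to the mean of the 2 scramble libraries (x axis), with genes in rows ordered by role; grey circles are scramble, blue squares C3 and orange triangles C6. C3 points lie mostly right of 0 and C6 points mostly left, with exceptions such as ORC5, RPA3 and POLD2.

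Of the 6 origin recognition genes, 3 fell and 1 rose in C6 against scramble, and in C6 against C3 4 were lower and 2 higher (ORC3 and ORC5). Of all genes tested, 22.8% fell and 23.8% rose in C6, and 24.1% were lower and 25.1% higher in C6 than in C3. In C3 none of the 6 ORC genes passed the test, with log2 fold changes between −0.23 (ORC3, edgeR adjusted p = 0.0514) and 0.094 (ORC6). In C6, ORC1, ORC2 and ORC4 fell and ORC5 rose, and ORC4 lost its call without either scramble or either C6 library. ORC1, a subunit that binds ATP and recruits CDC6, read 36.8 and 35.2 CPM in the scramble pair, 34.6 and 35.5 in the C3 pair and 26.2 and 28.7 in the C6 pair. Its C6 libraries lay below the other 4, a log2 change of −0.39 ± 0.087 (SE). The core subunit ORC2 read 93.5 and 95.2 CPM in the scramble pair, 94.9 and 95.1 in the C3 pair and 67.4 and 65.5 in the C6 pair. It changed by −0.51 ± 0.065 in C6, but by −0.023, not called, relative to its chromosome neighbours. ORC5, another core subunit, read 32.2 and 31.1 CPM in the scramble pair, 29.7 and 30.1 in the C3 pair and 46.9 and 40.2 in the C6 pair. Both C6 libraries lay above all others (0.46 ± 0.090, edgeR adjusted p = 7.0e-04), but relative to its neighbours on chromosome 7, described further on, ORC5 stood at −0.061. ORC6, which joins the complex more loosely, stood between 59.2 and 73.04 CPM in the C6 and C3 libraries and was lower in C6 than in C3 (−0.25 ± 0.073).

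Of the licensing factors, CDT1 fell in C6 and GMNN rose in C3. CDT1 read 80.2 and 81.2 CPM in the scramble pair, 83.7 and 84.6 in the C3 pair and 47.4 and 49.5 in the C6 pair, so the 4 scramble and C3 libraries lay close together and both C6 libraries far below. C6 stood at 60.02% of scramble, a log2 change of −0.74 ± 0.068 (edgeR adjusted p = 5.3e-07). Relative to its chromosome neighbours CDT1 stood at −0.11 and was not called. CDC6, the ATPase that works with CDT1, was not called in any comparison; its libraries ranged from 90.6 to 103 CPM over all groups. Geminin (GMNN), the inhibitor of CDT1, read 37.7 and 34.96 CPM in the scramble pair, 42.1 and 47.8 in the C3 pair and 38.1 and 32.5 in the C6 pair. It rose in C3 (0.31 ± 0.096, edgeR adjusted p = 0.0292), and its C6 libraries lay on either side of those of scramble. Without the first or second scramble library, or without the second C3 library, GMNN lost its call in C3, as it did with upper-quartile scaling and DESeq2.

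All 6 genes of the MCM ring rose in C3, where 12.4% of all genes tested did, and in C6 they parted. The C3 log2 changes ran from 0.18 (MCM3) to 0.59 (MCM5), and no C3 library of any of the 6 overlapped a scramble library. MCM5 read 59.8 and 62.6 CPM in the scramble pair, 90.4 and 94.5 in the C3 pair and 65.7 and 67.4 in the C6 pair. Its C3 level was 151% of scramble (log2 0.59 ± 0.068, edgeR adjusted p = 1.4e-05). The C6 libraries of MCM5 lay slightly above scramble and did not pass the test (0.12). The rises of MCM3, MCM6 and MCM7 in C3 were small and were not called with upper-quartile scaling, without either scramble library, or without either C3 library; MCM3, MCM6 and MCM7 were also lost with the replicate number as a block.

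MCM2, MCM3 and MCM4 were higher in C3 and lower in C6. MCM2 read 157 and 157 CPM in the scramble pair, 190.5 and 207 in the C3 pair and 130.3 and 142 in the C6 pair. That is 0.34 ± 0.065 in C3 and −0.21 ± 0.066 in C6 on the log2 scale, the latter lost without either scramble library or the first C6 library. MCM3 read 336 and 335 CPM in the scramble pair, 386 and 376 in the C3 pair and 259 and 265 in the C6 pair. Its C6 change was −0.36 ± 0.055 (edgeR adjusted p = 9.2e-05). For MCM4 the libraries gave 254 and 273 CPM in the scramble pair, 312 and 318 in the C3 pair and 223 and 235 in the C6 pair, and the 3 groups did not overlap. Its call in C3 was lost without the first scramble or second C3 library, and that in C6 without the second scramble or first C6 library. C6 was lower than C3 by a log2 difference of −0.54 for MCM2, −0.54 for MCM3, −0.46 for MCM4 and −0.47 for MCM5. Their SEs were 0.065, 0.055, 0.060 and 0.068.

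MCM6 rose in C6 as well, and MCM7 was not called there. MCM6 read 106 and 108 CPM in the scramble pair, 119.8 and 124 in the C3 pair and 129 and 124 in the C6 pair, and rose in C6 by 0.24 ± 0.062 (edgeR adjusted p = 0.00487). For MCM7 the values were 322 and 314 CPM in the scramble pair, 365 and 360.5 in the C3 pair and 343 and 356 in the C6 pair; C6 lay above scramble without passing the test (0.14, edgeR adjusted p = 0.0588). C6 minus C3 was 0.052 ± 0.062 for MCM6 and −0.054 ± 0.056 for MCM7, neither called. Against its chromosome neighbours MCM7 stood at −0.40 in C6 and was called lower. MCM7 shares its locus with AP4M1, so reads of the overlap could count for either.

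**Figure D2:**
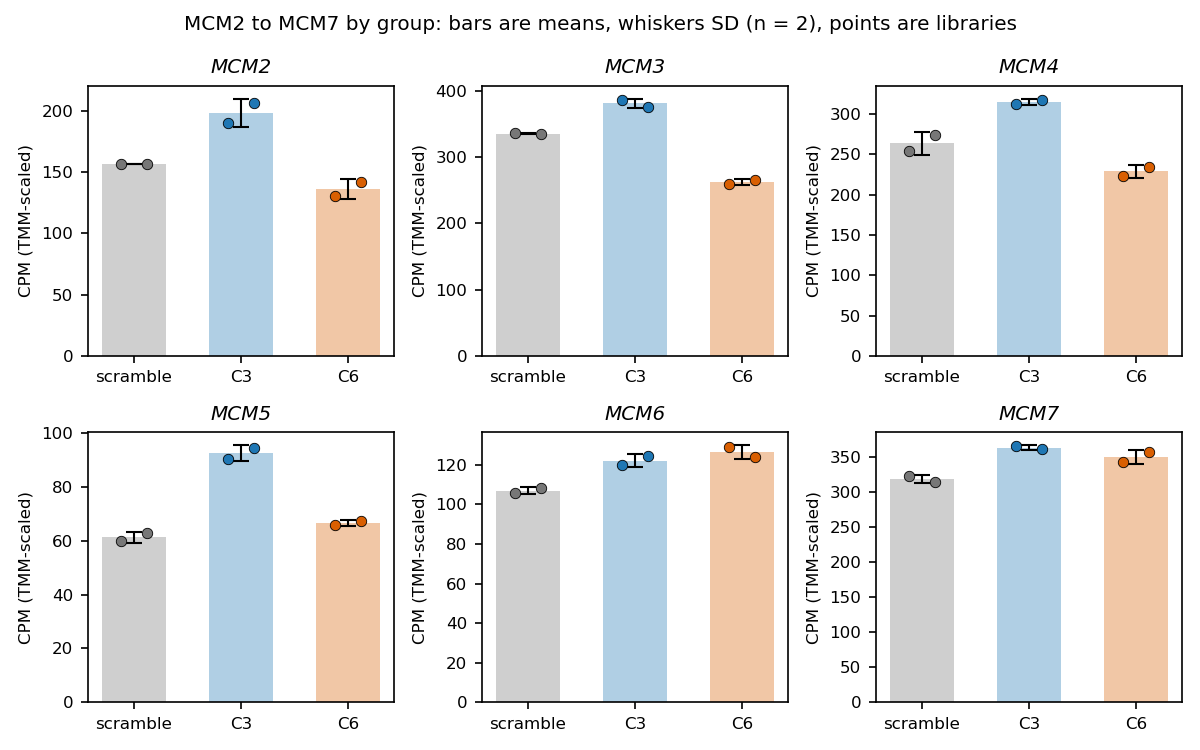
CPM of the 6 MCM ring genes by group (y axis from 0); bars are means, whiskers SD of 2 libraries and points the libraries. MCM2, MCM3 and MCM4 are highest in C3 and lowest in C6, MCM5 stands out in C3 alone, and MCM6 and MCM7 lie above scramble in both lines.

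The factors that activate the helicase also differed from each other. CDC45, which joins the ring and GINS in the moving helicase, read 24.8 and 23.6 CPM in the scramble pair, 36.1 and 37.6 in the C3 pair and 27.9 and 28.8 in the C6 pair. Its C3 rise of 0.61 ± 0.087 had the highest value of the 46 genes in that line (edgeR adjusted p = 1.1e-04), and it was also higher in C6 (0.23 ± 0.088, edgeR adjusted p = 0.0432). The C6 call of CDC45 was lost without any 1 of the 6 libraries. GINS2 went the other way in C6: it read 21.8 and 20.00 CPM in the scramble pair, 25.3 and 27.4 in the C3 pair and 11.5 and 12.01 in the C6 pair. At 56.2% of scramble its C6 fall (−0.83 ± 0.11) was the largest of the 46 genes, while in C3 it rose by 0.33 ± 0.10 (edgeR adjusted p = 0.0238). Relative to its chromosome neighbours GINS2 stood at −0.16 in C6 and was not called. GINS2 overlaps GSE1, so some of its reads could be shared. For the other GINS genes the C6 log2 values were 0.16 for GINS1, 0.048 for GINS3 and −0.062 for GINS4, none called. GINS3 rose in C3 (0.31 ± 0.097). Without the second scramble or second C3 library, and by DESeq2, neither GINS2 nor GINS3 was called in C3, and GINS3 was also lost without the first C3 library.

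The kinase that fires origins differed between its subunits in C6. However, DBF4 stood at 0.019 there relative to its chromosome neighbours and was not called. CDC7, the catalytic subunit, read 47.6 and 50.9 CPM in the scramble pair, 50.9 and 52.9 in the C3 pair and 32.96 and 30.7 in the C6 pair, with both C6 libraries below all others (−0.63 ± 0.080, edgeR adjusted p = 1.4e-05). DBF4, which activates CDC7, read 45.99 and 42.4 CPM in the scramble pair, 46.3 and 51.2 in the C3 pair and 57.6 and 53.6 in the C6 pair, and rose in C6 (0.33 ± 0.082), which was lost without the second scramble library. MCM10, a helper of helicase activation, fell in C6 (−0.23 ± 0.088, edgeR adjusted p = 0.0409) and was lost without the first or second scramble library or the second C6 library.

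PCNA, the sliding clamp, had the highest level per length of the 45 genes with a transcript length. In scramble it stood at 141 CPM per kilobase of transcript, MCM3 followed at 117 and MCM7 at 107, and GINS4 was lowest at 4.45. The scramble libraries of these 4 genes did not overlap on that scale. Unscaled by length, PCNA read 195 and 186 CPM in the scramble pair, 241 and 246 in the C3 pair and 273 and 243 in the C6 pair. It rose by 0.35 ± 0.065 in C3 and 0.43 ± 0.065 in C6 (edgeR adjusted p = 9.5e-04 and 6.0e-05), and all 4 knockdown libraries lay above scramble. The C6 value of PCNA relative to its chromosome neighbours was 0.13, not called. RefSeq names 4 PCNA pseudogenes, whose reads could be mixed with those of PCNA.

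The RFC subunits that load the clamp went in different directions in C6. RFC4 read 85.5 and 75.3 CPM in the scramble pair, 83.3 and 87.3 in the C3 pair and 50.9 and 45.1 in the C6 pair, which placed C6 at 59.7% of scramble (−0.74 ± 0.083). Relative to its chromosome neighbours RFC4 stood at −0.26, still called lower. RFC2 read 48.1 and 41.3 CPM in the scramble pair, 46.8 and 49.5 in the C3 pair and 61.4 and 60.3 in the C6 pair, a rise of 0.45 ± 0.083 that became −0.11 relative to its chromosome neighbours. The large subunit RFC1 fell by 0.41 and RFC3 by 0.29 on the log2 scale, and RFC5 had 0.044, not called. RFC3 lost its call without the first scramble library. None of the RFC genes was called in C3, where they lay between −0.051 (RFC1) and 0.19 (RFC3). RFC5 overlaps WSB2.

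Both genes of polymerase alpha rose in C3, and neither was called in C6. POLA1, the catalytic subunit, read 82.1 and 86.1 CPM in the scramble pair, 105 and 101 in the C3 pair and 79.7 and 81.4 in the C6 pair, a C3 change of 0.29 ± 0.065 (edgeR adjusted p = 0.00399). The accessory subunit POLA2 read 32.4 and 35.9 CPM in the scramble pair, 41.4 and 41.7 in the C3 pair and 36.7 and 36.6 in the C6 pair (0.28 ± 0.082 in C3). Calls in C3 were lost for both without the first C3 library, and for POLA2 also without the second C3 or first scramble library and by DESeq2. The primase genes PRIM1 and PRIM2 gave 0.16 and 0.18 in C3, not called. None of these 4 passed the test in C6, where log2 values lay between −0.062 and 0.10, and POLA1 was lower in C6 than in C3 (−0.35 ± 0.065).

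In polymerase delta the catalytic and accessory subunits moved apart in C6. POLD1, the catalytic subunit, read 72.9 and 66.9 CPM in the scramble pair, 74.1 and 81.7 in the C3 pair and 40.1 and 42.9 in the C6 pair. C6 was at 59.4% of scramble (−0.75 ± 0.080, edgeR adjusted p = 2.1e-06), while C3 did not pass the test (0.16). POLD2, an accessory subunit, read 109 and 96.3 CPM in the scramble pair, 123 and 130.1 in the C3 pair and 142 and 142 in the C6 pair, and rose in C3 (0.30 ± 0.069) and in C6 (0.47 ± 0.069). Its C3 call was lost without the second scramble or second C3 library, and relative to its chromosome neighbours its C6 value was −0.027. POLD3, another accessory subunit, fell in C6 (−0.33 ± 0.077). POLE, the catalytic subunit of polymerase epsilon, read 86.8 and 99.8 CPM in the scramble pair, 98.9 and 94.2 in the C3 pair and 70.7 and 83.1 in the C6 pair, and its C6 fall of −0.28 ± 0.087 was lost without the second scramble or the first C6 library. POLE2 was not called (−0.17 in C6).

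The enzymes that join lagging strand fragments fell in C6. LIG1, the replicative ligase, read 35.6 and 35.5 CPM in the scramble pair, 34.9 and 34.8 in the C3 pair and 24.7 and 26.1 in the C6 pair (−0.48 ± 0.085 in C6, edgeR adjusted p = 2.5e-04). FEN1, which removes flaps, read 134 and 132 CPM in the scramble pair, 129 and 139 in the C3 pair and 112 and 106 in the C6 pair (−0.29 ± 0.064). In C3 the log2 values were −0.028 and 0.014, not called. The subunits of RPA, the single-strand binding complex, did not move together in C6. RPA1 fell (−0.26 ± 0.060) and RPA3 rose, from 14.5 and 14.00 CPM in scramble to 23.7 and 20.2 in C6 (0.62 ± 0.11), next to 15.4 and 15.9 in C3. RPA2 gave 0.19 ± 0.075 in C6 (edgeR adjusted p = 0.0473), a call lost under 11 of the 14 alternatives. RPA3 overlaps UMAD1.

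The fork protection genes were lower in C6 than in C3. TIMELESS read 131 and 127 CPM in the scramble pair, 146 and 141 in the C3 pair and 97.8 and 102 in the C6 pair, so that C3 lay above and C6 below scramble, and C6 fell by 0.37 on the log2 scale. TIPIN, its partner, had −0.25 in C6 and did not pass the test against scramble (edgeR adjusted p = 0.0534), but was lower than in C3 (−0.36 ± 0.099, edgeR adjusted p = 0.0076). CLSPN encodes claspin, which links the fork to the checkpoint kinase CHK1. It read 37.4 and 40.9 CPM in the scramble pair, 37.3 and 36.6 in the C3 pair and 25.8 and 27.3 in the C6 pair, and both C6 libraries lay below all others (−0.56 ± 0.086, edgeR adjusted p = 8.0e-05).

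**Figure D3:**
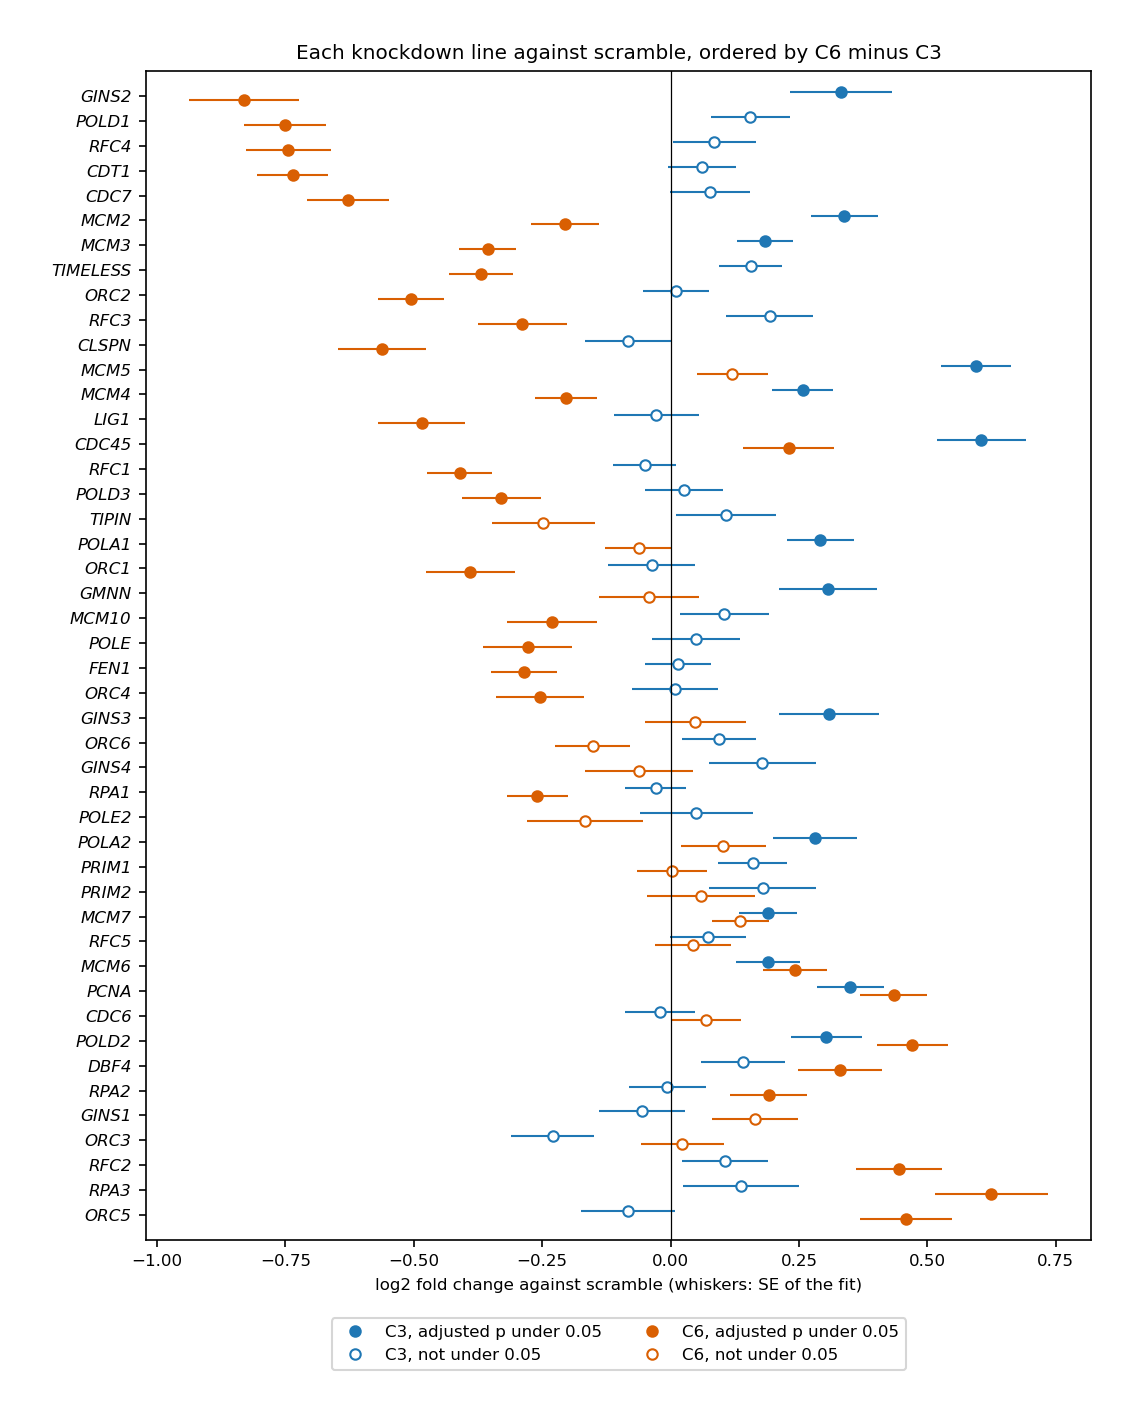
Log2 fold change against scramble of the 46 genes in C3 (blue) and C6 (orange), with SE of the fit as whiskers; filled points have an adjusted p under 0.05, and genes are ordered by C6 minus C3. GINS2, POLD1, RFC4, CDT1 and CDC7 at the top are furthest below C3 in C6, and ORC5, RPA3 and RFC2 at the bottom are above it.

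In C6 the values of several genes lay near those of the genes around them on the chromosome. For each gene the median log2 fold change of 50 tested genes around it in chromosome order was taken, leaving out the gene itself. On chromosome 7 the median of all 633 tested genes in C6 was 0.46, and 79.5% of them lay above 0. The 6 replication genes there are MCM7, ORC5, DBF4, RFC2, POLD2 and RPA3, and their C6 values lay between 0.14 (MCM7) and 0.62 (RPA3), with neighbours between 0.31 and 0.55. PCNA, on chromosome 20, had neighbours at 0.31. CDT1 and GINS2, on chromosome 16, had neighbours at −0.63 and −0.67, RFC4 on chromosome 3 at −0.48 and ORC2 on chromosome 2 at −0.48. In C3 the neighbours of all 46 genes lay within 0.25 of 0.

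In C6, 8 of the 46 genes had neighbours above 0.25 (ORC5, MCM7, GINS4, DBF4, PCNA, RFC2, POLD2 and RPA3), where 8.83% of all genes with neighbours did, and 6 of these 8 were among those that rose. Neighbours below −0.25 were found for 5 (ORC2, ORC3, CDT1, GINS2 and RFC4), where 6.69% of all genes had them, and 4 of the 5 were among those that fell. The other 33 had neighbours within 0.25 of 0, and among them 3 rose (MCM6, CDC45 and RPA2) and 17 fell. When the neighbours' median of each line was entered as an offset in the fit, C6 gave 4 higher and 17 lower genes. GINS2 then stood at −0.16 and CDT1 at −0.11 in C6, neither called. The calls of ORC5, DBF4, PCNA, RFC2, POLD2 and RPA3 (higher) and of ORC2, ORC4, MCM2, MCM10 and POLD3 (lower) were lost too, ORC3 became higher and ORC6 and GINS4 lower, and MCM7 turned from 0.14 to −0.40, now called lower. RFC4 kept its call at a smaller size (−0.26, from −0.74). POLD1 still fell (−0.66, from −0.75), as did CDC7 (−0.70, from −0.63), CLSPN (−0.61, from −0.56) and LIG1 (−0.59, from −0.48). In the direct comparison of the lines 31 genes were then lower in C6 and 3 higher, but not the same genes as before. CDT1 (−0.11), ORC2 (−0.073), ORC4 (−0.14) and MCM10 (−0.16) were no longer called lower, nor ORC5 (0.023), RPA3 (0.043) and GINS1 (0.18) higher, and GINS2 and RFC4 shrank to −0.49 and −0.40. Newly lower were MCM7, GINS4, DBF4, PCNA, POLA2 and POLD2, RFC2 turned from higher to lower, and MCM6 became higher. C3 gave 14 higher and 0 lower. What the neighbours' shift stems from was not tested.

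**Figure D4:**
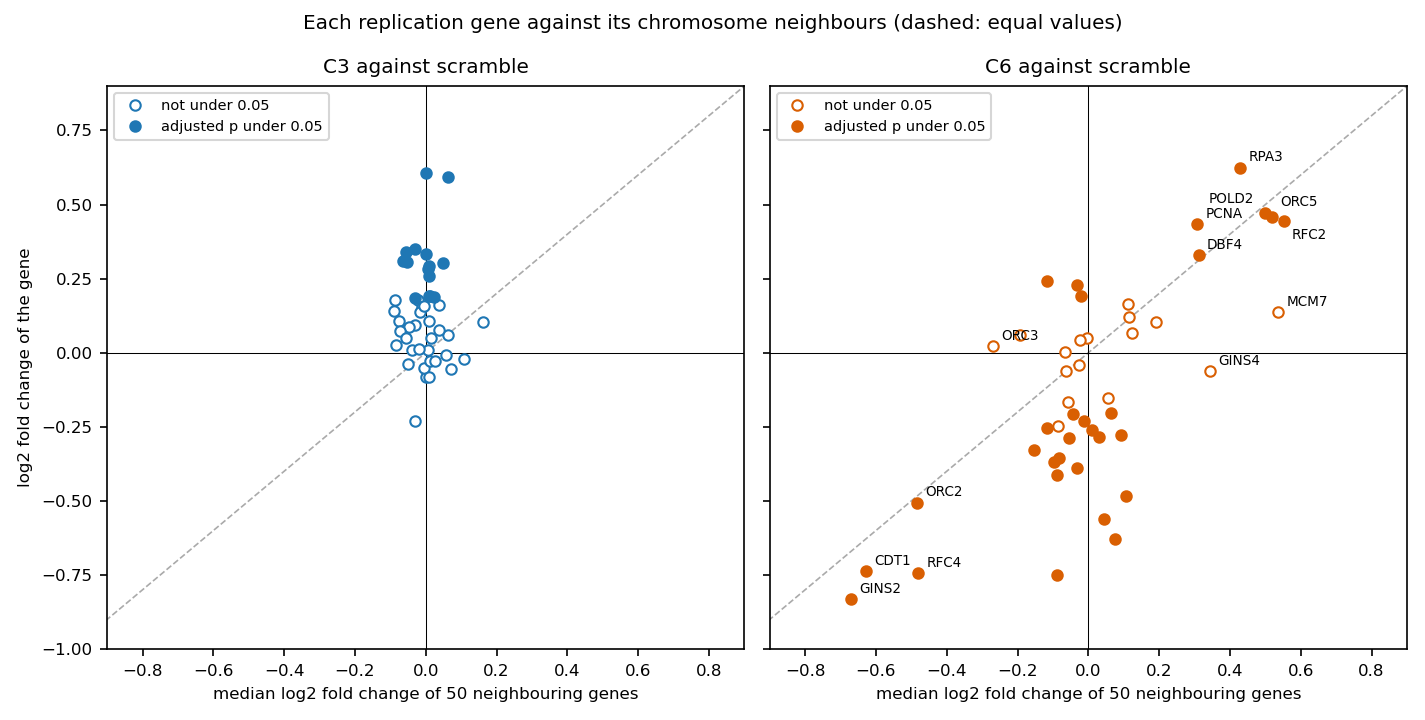
Log2 fold change of each of the 46 genes (y axis) against the median of 50 tested chromosome neighbours (x axis), in C3 (left) and C6 (right); filled points have an adjusted p under 0.05 and the dashed line marks equal values. In C3 all neighbour medians lie near 0, whereas in C6 the 13 named genes have neighbour medians beyond 0.25 on either side.

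Genes around the fork that are not among the 46 were counted in lists, to be read beside the shares of all genes called: 12.4% higher and 11.9% lower in C3, 23.8% and 22.8% in C6, and 25.1% and 24.1% in C6 against C3. Of 28 other origin and fork factors, 2 rose and 0 fell in C3, 5 rose and 13 fell in C6, and 15 were lower and 3 higher in C6 than in C3 (median log2 difference −0.25). The C3 counts were 4 higher and 3 lower by edgeR at an unadjusted p under 0.05 and 2 and 0 by DESeq2, and 0 and 0 without the first scramble or second C3 library. The small delta subunit POLD4 read 27.8 and 25.95 CPM in the scramble pair, 21.7 and 24.8 in the C3 pair and 55.2 and 55.5 in the C6 pair, a rise of 1.04 ± 0.088 in C6. DNA2, a nuclease of lagging strand processing, fell in C6 (−0.36), as did MCM9, a helicase of recombination (−0.60), and DBF4B, a relative of DBF4 (−0.41). In replication-coupled chromatin assembly 5 of 12 genes rose and 1 fell in C3, and 1 rose and 6 fell in C6; the C3 count was 2 higher without either scramble or the second C3 library and 3 without the first C3 library, and the C6 count 3 lower without the second scramble or first C6 library. The histone mRNA binding protein SLBP gave −0.71 ± 0.076 in C6 with neighbours at −0.76. UHRF1, which guides maintenance of DNA methylation, read 75.6 and 81.7 CPM in the scramble pair, 100.5 and 95.7 in the C3 pair and 48.2 and 52.4 in the C6 pair, rising in C3 (0.32) and falling in C6 (−0.64). SSRP1, a subunit of the histone chaperone FACT, rose in C3 (0.33) and the histone chaperone ASF1A in C6 (0.45).

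Of 29 genes that govern entry into S phase, 3 rose and 5 fell in C3, where 24.3% of all genes were called, and 6 rose and 11 fell in C6, where 46.7% were. The share called in C3 lies near that of all genes. TFDP1, the DNA-binding partner of E2F factors, read 210.0 and 206 CPM in the scramble pair, 161 and 147 in the C3 pair and 92.7 and 90.2 in the C6 pair, and fell in C3 (−0.43 ± 0.062) and in C6 (−1.19 ± 0.064); its neighbours on chromosome 13 stood at −0.47 in C6. The pocket protein RBL2, which represses E2F targets outside of S phase, fell in both comparisons (−0.26 and −0.60), and so did cyclin E2 (CCNE2, −0.53 and −0.95). Cyclin E1 (CCNE1) had −0.59 in C3, not called, and fell in C6 (−1.32). The CDK inhibitor CDKN1A was chosen after its values were seen: it read 9.58 and 9.68 CPM in the scramble pair, 6.10 and 5.94 in the C3 pair and 19.3 and 18.98 in the C6 pair, falling in C3 (−0.68 ± 0.13) and rising in C6 (0.99 ± 0.12). Of 12 ATR checkpoint genes, edgeR called 0 higher and 1 (RHNO1) lower in C3. DESeq2, and edgeR at an unadjusted p under 0.05, gave the same counts. In C6, 3 of the 12 rose and 3 fell, a share near the 46.7% of all genes called there. WEE1, the kinase that restrains CDK1, read 34.8 and 33.03 CPM in the scramble pair and 34.5 and 35.5 in the C3 pair. In the C6 pair WEE1 read 16.7 and 15.2 CPM (−1.09 ± 0.094 in C6). CDC25B gave 0.50 in C6, with neighbours on chromosome 20 at 0.33. CDC25C gave −0.70 and ETAA1, an activator of ATR, −0.44 in C6.

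Genes of G2 phase and mitosis were also lower in C6. Of 20, 13 fell and 1 rose in C6 (22.8% and 23.8% of all genes), 3 rose and 0 fell in C3 (12.4% and 11.9% of all genes), and 13 were lower and 0 higher in C6 than in C3. DESeq2 gave the same counts, and at an unadjusted p under 0.05 edgeR gave 4 higher and 0 lower in C3 and 1 higher and 13 lower in C6 against C3. The 3 in C3 were 1 without the second scramble or second C3 library and 0 with the neighbour shift removed. Their median log2 fold change was 0.063 in C3 and −0.36 in C6. The mitotic kinase PLK1 read 87.97 and 87.5 CPM in the scramble pair, 95.5 and 97.9 in the C3 pair and 46.4 and 49.00 in the C6 pair (−0.88 ± 0.068 in C6), the checkpoint kinase BUB1B gave −0.56 and the kinesin KIF20A −0.73, while AURKA rose in C3 (0.44), with neighbours on chromosome 20 at 0.44. The part of the G2 and mitosis genes in the values of the 46 genes was not tested.

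**Figure D5:**
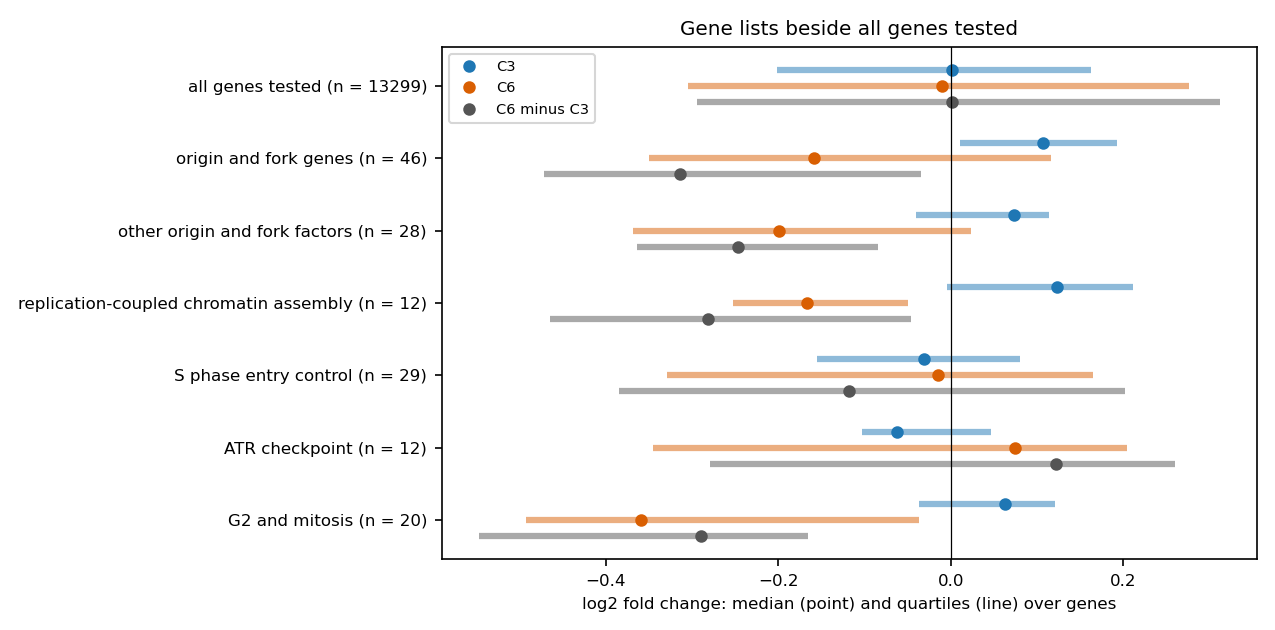
Median (point) and quartiles (line) of the log2 fold change over the genes of each list and over all 13299 genes tested, for C3 against scramble, C6 against scramble and C6 minus C3 (x axis). The median of the 46 origin and fork genes lies right of 0 in C3 and left of it in C6, as do those of the other origin and fork factors, chromatin assembly and G2 and mitosis.

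Averaged over both lines, 9 of the 46 genes were higher and 11 lower than in scramble, where 32.9% of all genes were called, 16.6% higher and 16.3% lower, and the median was −0.002. With upper-quartile scaling the split was 7 and 15. Without the first scramble library it was 7 and 5, and without the second 5 and 5. Leaving out a scramble library lowered the calls over all genes as well. With upper-quartile scaling 1642 of all 13299 genes tested were called higher and 2773 lower, from 2212 and 2170 before. The 4 knockdown libraries were also fitted as 1 group, so that the difference between lines counted as spread. There edgeR called 0 of the 46 higher and 0 lower (4 and 0 at an unadjusted p under 0.05). Over all 13299 genes that fit called 40 higher and 40 lower.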

How the data were processed

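RNA from SW620 cells was sequenced in 6 libraries, 2 each of scramble, C3 and C6, grouped by title. The authors deposited whole-number read counts per gene, without any scaling, as the header of the deposited table names them. Trimmomatic 0.38, HISAT2 2.1.0, StringTie 2.1.3b, DESeq2 and hg38 are named per the submitters' processing notes. The kit is stranded per the labels' protocols. How reads were assigned to genes, and whether by strand, was not stated, so reads of overlapping genes, antisense genes and pseudogenes may be mixed. Of the 46 genes, 8 overlap another gene of the count table (ORC1, ORC3, ORC4, MCM7, GINS2, RFC5, PRIM2 and RPA3). RefSeq names pseudogenes for 10 (ORC1, DBF4, PCNA, RFC3, RFC5, POLD2, FEN1, RPA2, RPA3 and TIPIN).

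Counts were fitted with edgeR 4.0.16 (R 4.3.3; TMM scaling, filterByExpr, robust quasi-likelihood test) over all 6 libraries as 3 groups, with 3 residual degrees of freedom, with Benjamini-Hochberg adjustment over 13299 genes and a threshold of 0.05. CPM are TMM-scaled. DESeq2 1.42.0 was an alternative. Positions came from RefSeq GRCh38.p14 (13251 tested genes), and transcript lengths from GENCODE release 29, through its RefSeq pairs, as the median over matched transcripts. Neighbour medians used windows of 51 genes. The members and lists were chosen with earlier results of these data known. Any of the 46 genes could be named; from each other list the text names the 4 with the smallest p for the mean of the lines, and CDKN1A and RHNO1 besides. The neighbour limit of 0.25 and the promoters shown were chosen after seeing the data. On simulated counts for 13299 genes, with 50 genes changed at each size, the C6 comparison recovered 24% of genes changed 1.25-fold, 78% at 1.5-fold, 72% at 2-fold and 98% at 4-fold.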

Additional observations from a re-analysis of the deposited data

Results flagged for a closer look

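Levels differed between the C6 and C3 libraries for 34 of the 46 genes, by edgeR's quasi-likelihood test of C6 against C3 (adjusted p under 0.05). Of all genes tested 49.2% were called there, 24.1% lower and 25.1% higher. Values are C6 minus C3 on the log2 scale. Among the origin recognition genes C6 was lower for ORC2 (−0.52), ORC1 (−0.35), ORC4 (−0.26) and ORC6 (−0.25). Among the licensing factors C6 was lower for CDT1 (−0.80) and GMNN (−0.35). In the MCM ring C6 was lower for MCM2 (−0.54), MCM3 (−0.54), MCM5 (−0.47) and MCM4 (−0.46). Of the factors that activate the helicase C6 was lower for GINS2 (−1.16), CDC7 (−0.71), CDC45 (−0.38), MCM10 (−0.34) and GINS3 (−0.26). For the clamp loader C6 was lower for RFC4 (−0.83), RFC3 (−0.48) and RFC1 (−0.36). In polymerase alpha C6 was lower for POLA1 (−0.35). In polymerases delta and epsilon C6 was lower for POLD1 (−0.91), POLD3 (−0.36) and POLE (−0.33). For fragment joining C6 was lower for LIG1 (−0.46) and FEN1 (−0.30). In RPA C6 was lower for RPA1 (−0.23). In fork protection C6 was lower for TIMELESS (−0.53), CLSPN (−0.48) and TIPIN (−0.36). C6 was higher for RPA2 (0.20), GINS1 (0.22), ORC3 (0.25), RFC2 (0.34), RPA3 (0.49) and ORC5 (0.54). With the shift of the chromosome neighbours removed, CDT1, ORC2, ORC4, MCM10, ORC5, RPA3 and GINS1 were no longer called, RFC2 changed sign to −0.29, and GINS2 and RFC4 were smaller, at −0.49 and −0.40. No explanation was tested.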

How the results depend on the processing

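Alternatives were other scalings, low-count filters, DESeq2, fits of only the groups compared, the replicate block, removal of the neighbour shift and leaving out each library. In C3, genes called higher numbered 9 with upper-quartile scaling and 9 with DESeq2 (14 before) and 5 to 14 with a library left out; 1 gene, ORC3, was called lower with RLE or upper-quartile scaling, without a filter and with a filter of 1 CPM, and 0 to 1 with a library left out. In C6, genes called higher numbered 4 with the neighbour shift removed (9 before), and with a library left out 6 to 8 higher and 16 to 21 lower. For C6 against C3, 3 were higher with the neighbour shift removed (6 before), and 3 to 6 higher and 23 to 28 lower with a library left out. Averaging the lines left 4 higher and 6 lower genes with the neighbour shift removed, 0 and 0 with both lines as 1 group, and 5 to 10 higher and 5 to 10 lower with a library left out. Removing the neighbour shift also turned signs: MCM7 to −0.40, ORC5 to −0.061, POLD2 to −0.027 and RFC2 to −0.11 in C6; DBF4 to −0.21, PCNA to −0.25, POLD2 to −0.28 and RFC2 to −0.29 for C6 against C3; and GINS2 to 0.085, ORC2 to 0.014 and MCM7 to −0.12 in the mean. The cause was not tested. Under every alternative run, 4 of 14 calls in C3, 12 of 30 in C6 and 19 of 34 between the lines held.

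Replicate numbers are shared between groups, but the labels do not say that they pair libraries, and deviations of equal numbers correlated at −0.047 (scramble and C3), 0.064 (scramble and C6) and 0.025 (C3 and C6) across genes. With the replicate block 11 genes were higher and 0 lower in C3, 7 and 21 in C6, 4 and 27 for C6 against C3, and 9 and 8 in the mean. With 2 libraries a group, leaving 1 out assumes that the lone library varies like the other groups. Fewer calls over all genes also remained whenever a library of a compared group was left out.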
